A study of Mus musculus with 240 samples.

Results

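Complement genes outside the C1q subunits were followed across 3 brain regions of 8 inbred mouse strains. The 7 genes, C3, C4a, C4b, Cfb, Serping1, Cd55 and Cd59a, were chosen by name out of 55414 genes in the count table. Of the 7, 6 were also among the genes with deposited log2 values, and Cfb was not. The strains were the founders of the Collaborative Cross, a mouse population bred for genetic mapping: the classical laboratory strains C57BL/6J (B6), 129S1/SvImJ (S129), A/J (AJ), NZO/HILtJ (NZO) and NOD/LtJ (NOD), and the wild-derived strains WSB/EiJ (WSB), PWK/PhJ (PWK) and CAST/EiJ (CAST). Each strain gave 3 female and 3 male mice that were naive, so no animal had received ethanol. The series text states 8 weeks of age at death, whereas the methods of the study state an older adult age. Punches were taken by hand from frozen slices, and poly(A) RNA was sequenced. CeA stands for the central amygdaloid nucleus, NAcc for the core of the accumbens nucleus and PrL for prelimbic cortex. Of 48 CeA, 47 NAcc and 48 PrL libraries used, each strain had 6 per region except B6 in the NAcc, which had 5. The study called B6 and PWK its high ethanol preference strains and set each against the mean of the other 6, named Low_Average. Mice of an inbred strain share a genotype, and reads of all strains were aligned to GRCm39, a reference that derives from C57BL/6J.

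Complement is a cascade of secreted proteins in which each active protease cleaves the next component. In the classical pathway, C1 cleaves C4, and a fragment of C4 joins a protease to form the enzyme that cleaves C3, the component on which all routes converge. Factor B, the product of Cfb, takes that place in the alternative pathway, which amplifies C3 cleavage. Serping1 encodes C1 inhibitor, which blocks the proteases of C1. Cd55 encodes decay-accelerating factor, a membrane protein that breaks up C3-cleaving enzymes, and Cd59a encodes a membrane protein that stops assembly of the terminal pore. In the brain, C3 and C4 are known for marking synapses that microglia remove, and glia are a main source of both.

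Mice carry neighbouring C4 genes on chromosome 17: C4b encodes complement C4, and C4a encodes sex-limited protein, a close relative best known for its androgen-dependent level in liver. The sequences are shown because the counts of both genes turn on how well their reads can be told apart. In GENCODE M21 (GRCm38), 5160 of 5367 aligned transcript bases were identical (96.1%), and 16.5% of 100-base windows held no difference. A stretch of 120 bases with 19 differences is printed below from the C4a-207 transcript (bases 2695 to 2814) and the C4b-201 transcript (bases 2701 to 2820), where it is coding sequence of exon 21 of 41 of C4b, 5′ to 3′ on the transcript strand. Capitals mark the bases that differ.
C4a: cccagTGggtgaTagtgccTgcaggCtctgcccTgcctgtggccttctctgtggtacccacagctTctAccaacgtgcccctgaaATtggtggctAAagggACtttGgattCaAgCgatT
C4b: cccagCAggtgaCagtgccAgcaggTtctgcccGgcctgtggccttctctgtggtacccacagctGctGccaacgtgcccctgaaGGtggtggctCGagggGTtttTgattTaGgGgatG
A read over this stretch carries many marks of its gene, whereas a read within the identical windows could not be assigned by its own sequence. Libraries were paired-end, and how often the other read of a pair covered a difference was not measured. C4a is annotated as a processed transcript in that release. Of the other members, C3 and Serping1 shared no 100-base window with another gene, Cd59a shared 0.293% with Cd59b, and Cd55 shared 7.03%, nearly all with Cd55b. C3 and Cfb also lie on chromosome 17, Serping1 and Cd59a on chromosome 2, and Cd55 on chromosome 1.

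Total counts ran from 14942820 to 33951616 per library, with a median of 24456928. Choroid plexus, the epithelium that makes cerebrospinal fluid, was marked by Ttr, Folr1, Kl and Clic6, and all 4 markers were found. Their summed level exceeded 100 CPM, read counts scaled to a common library size, in 15 of 48 CeA libraries and in no other library, with a highest value of 9330 CPM in the CeA against 54.5 in the NAcc and 8.78 in the PrL. The 15 libraries were 3 each of S129, NOD, NZO and WSB, 2 of B6 and 1 of PWK, and none of AJ or CAST. The labelled regions were also set against neuronal markers. Striatal neuron markers had a median sum of 2880 CPM in the NAcc against 826 in the CeA and 144 in the PrL, pallial glutamatergic neuron markers 2670 CPM in the PrL against 1180 in the CeA and 15.3 in the NAcc, and central amygdala neuron markers 390 CPM in the CeA against 268 in the NAcc and 252 in the PrL. The content of the CeA punches differed between strains, since the striatal markers had a CeA median of 3400 CPM in AJ, where 4 of 6 libraries exceeded the NAcc median, against 350 in NOD. Across the 48 CeA libraries, after strain, sex and tray were removed, these markers correlated with the members at r of -0.45 (Cd55) to 0.12 (C4b), and their part in the CeA strain differences was not tested. Values without the 15 libraries are given beside the CeA results that moved. In bulk tissue, fewer cells of a type and less RNA per cell cannot be told apart.

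Strain differences were found for each tested member in at least 2 regions. The moderated F-test over the 8 strains (limma, Benjamini-Hochberg adjusted over all genes with log2 values) was passed by 6 of 6 members in the CeA, 6 of 6 in the NAcc and 5 of 6 in the PrL, where C3 missed it (adjusted p = 0.37). These shares stood against 80.8%, 76.0% and 84.1% of all genes. Of 168 member-by-contrast tests per region, 67 CeA, 82 NAcc and 77 PrL tests were called, whereas 28.9%, 26.0% and 33.1% of all gene-by-contrast tests were called. C4a and Cd59a had the most called contrasts of 28 per region (19 to 23 and 18 to 23), followed by C4b (12 to 15), Cd55 (3 to 14), Serping1 (5 to 7) and C3 (0 to 7). The range between the highest and lowest strain mean, on the log2 scale, had a median over all genes of 0.49 in the PrL, 0.55 in the CeA and 0.56 in the NAcc. The members ran from 0.92 (Cd55 in the PrL) to 4.37 (C3 in the NAcc). A unique difference, in which a strain differs in the same direction from each of the other 7, was seen for C3 in WSB in the NAcc, C4b in NZO in the PrL and Cd59a in NOD in the PrL, and all 3 were higher. Unique differences of any strain were found for 27.0% of all genes in the PrL, 19.2% in the CeA and 17.7% in the NAcc. C3 passed the authors' filter of a mean of 1 CPM only with WSB included (0.931 CPM without it). Its F-tests, range and unique call are therefore not independent of its high level in WSB.

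**Figure D1:**
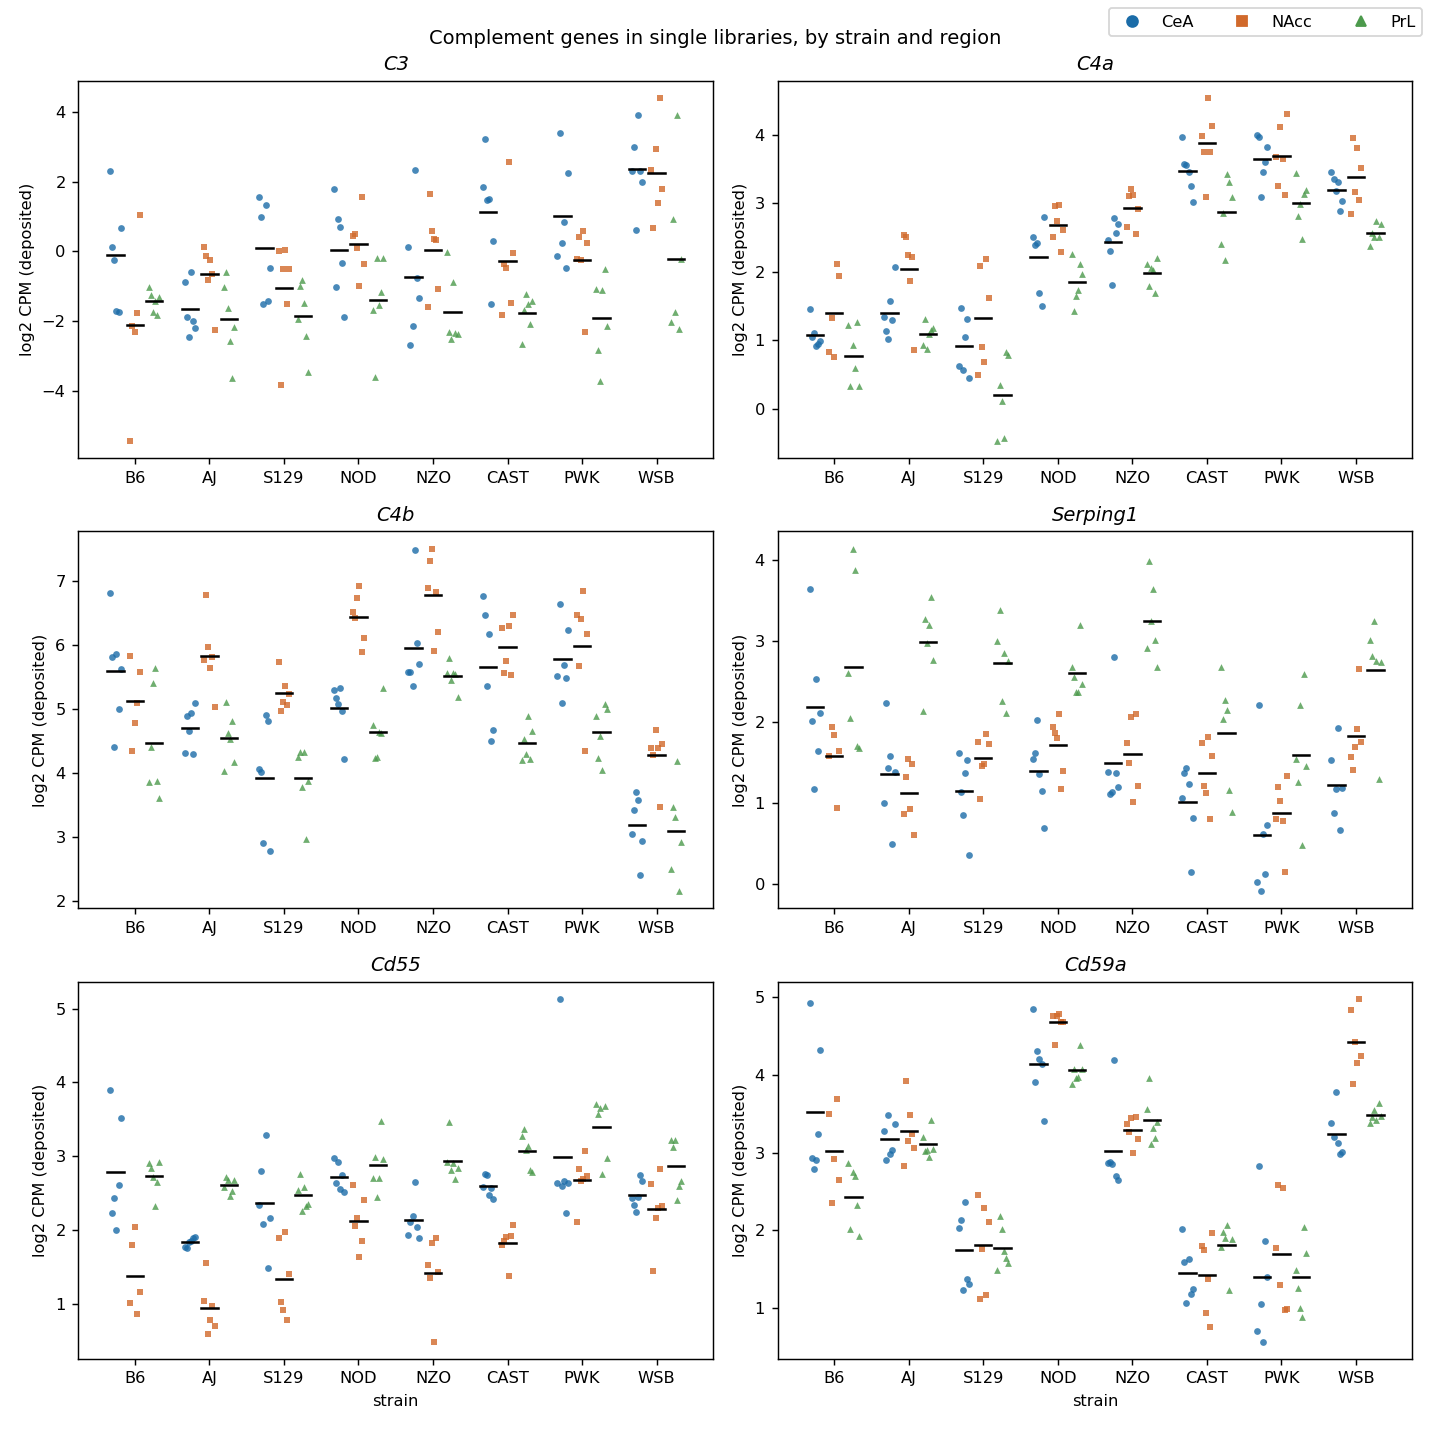
Deposited log2 CPM (vertical axes) of the 6 tested genes in each library, by strain (horizontal axes) and region (blue circles CeA, orange squares NAcc, green triangles PrL). Black bars are group means of 5 or 6 mice. C4a stepped up from B6, AJ and S129 to the wild-derived strains, C4b was lowest in WSB by mean over all libraries, and Cd59a was lowest in S129, CAST and PWK.

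C3, the central component, varied widely between mice of a strain. WSB had the highest mean in every region. In the NAcc, C3 in WSB ran from 1.58 to 21.0 CPM with a median of 4.22 (n = 6), whereas the 5 B6 libraries held 0, 0.172, 0.205, 0.27 and 2.06 CPM. The highest B6 value overlapped the lowest WSB value. WSB exceeded each of the other 7 strains in the NAcc, with B6 lower by a log2 fold change of -4.29 ± 0.923 (SE; limma, adjusted p = 0.000412) and NOD, the nearest, by -2.24 ± 0.593 (limma, adjusted p = 0.0038). All 7 contrasts remained called without any 1 of the 6 WSB mice (largest adjusted p = 0.0165, limma). In the CeA, WSB ran from 1.5 to 15.0 CPM with a median of 4.91 and exceeded 5 strains, while CAST (median 2.78 CPM) and PWK (median 1.47 CPM) could not be separated from it (adjusted p = 0.28 and 0.209, limma). Without WSB mouse 3, 2 of these contrasts remained. In the PrL no contrast was called, and mouse 3, at 15.0 CPM against a WSB median of 0.557, was the highest PrL library. Leaving out WSB mouse 11 gave 4 called PrL contrasts of WSB and leaving out mouse 35 gave 5. The PrL F-test of C3 also depended on the tool, with an adjusted p of 0.000609 by edgeR and 0.000116 by DESeq2 against 0.37 by limma. Depth was limiting for C3, since 12 of 48 PrL libraries held 3 or fewer reads of it. The mean over all libraries, as counts over unscaled library totals, was 1.43 CPM, and 0.931 CPM without WSB, so that C3 would have missed the authors' filter of a mean of 1 CPM had WSB not been included. In the CeA libraries with choroid plexus RNA, C3 had a median of 2.95 CPM (n = 15) against 0.695 CPM in the other 33, and without those 15 libraries the CeA F-test of C3 was still passed (adjusted p = 0.00253 against 0.00193 with all, limma) and WSB still had the highest mean.

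C4a separated the strains in steps. The 3 wild-derived strains were highest in all 3 regions, NZO and NOD were intermediate, and AJ, B6 and S129 were lowest. In the CeA, PWK ran from 8.49 to 15.9 CPM (median 13.1), CAST from 8.1 to 15.7 (median 11.4) and WSB from 7.35 to 11.0 (median 9.47). NZO ran from 3.48 to 6.86 CPM (median 5.7) and NOD from 2.83 to 6.94 (median 5.28). AJ, B6 and S129 had medians of 2.47, 2.01 and 1.79 CPM, and no library of theirs exceeded 4.19. None of the 18 wild-derived CeA libraries overlapped any of the 30 others. Going down the order, the steps from WSB to NZO (adjusted p = 0.000786, limma) and from NOD to AJ (adjusted p = 0.00301) passed the test, and neighbours within the 3 sets did not differ beyond their spread. The same 2 steps were called in the PrL (adjusted p = 0.0128 and 0.00546, limma). In the NAcc the order of the sets was the same, but no step between neighbours was called (smallest adjusted p = 0.112, limma). The largest contrasts set S129 below PWK in the CeA (log2 fold change -2.74 ± 0.215, adjusted p = 1.06e-13, limma) and in the PrL (-2.80 ± 0.252, adjusted p = 2.46e-12), and below CAST in the NAcc (-2.56 ± 0.316, adjusted p = 2.39e-08). Choroid plexus libraries had a C4a median of 5.49 CPM and the other CeA libraries 5.2 CPM.

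C4b, the complement C4 gene proper, followed another order. By mean log2 CPM over all libraries, WSB was lowest in every region and NZO was highest. In the CeA both ends of the order depended on which libraries were kept. Without NZO mouse 26, at 178 CPM, the NZO mean fell from 5.95 to 5.64 and lay behind PWK (5.77) and CAST (5.65). Without all 15 choroid plexus libraries the NZO and CAST means were level at the top (5.65). The S129 mean then lay just below that of WSB (3.56). C4b had a CeA median of 33.8 CPM in those 15 libraries and 33.9 CPM in the other 33. After strain, sex and tray were removed, CeA C4b correlated at r of 0.47 with choroid plexus, 0.78 with oligodendrocyte and 0.75 with astrocyte markers. The part of these markers in the places of NZO and WSB was not tested. In the NAcc, WSB ran from 11.0 to 25.2 CPM (median 20.8) and NZO from 59.8 to 181 (median 116), so the groups did not overlap. NZO exceeded WSB by a log2 fold change of 2.50 ± 0.314 in the NAcc (adjusted p = 3.45e-08, limma), 2.77 ± 0.479 in the CeA (adjusted p = 1.49e-05) and 2.43 ± 0.311 in the PrL (adjusted p = 2.27e-08). WSB was below 6 of the other 7 strains in each region. The exceptions were its nearest neighbours, S129 in the CeA and PrL (adjusted p = 0.3 and 0.0553, limma) and B6 in the NAcc (adjusted p = 0.0556). In the PrL, NZO ran from 36.4 to 55.5 CPM and exceeded all other strains, with NOD the nearest at 18.7 to 39.8 CPM (adjusted p = 0.00532, limma). B6 PrL libraries were spread widely, since mice 25 and 33 held 42.0 and 49.6 CPM and the other 4 held 12.1 to 21.2. The same 2 libraries had the highest summed levels of 8 interferon-induced genes in B6 PrL, 55.2 and 50.9 CPM against a B6 median of 31.4. They also had the highest B6 PrL sums of astrocyte markers (1640 and 1670 CPM, B6 median 1110) and oligodendrocyte markers (3850 and 5280, median 2640). The same held for leptomeningeal and fibroblast markers (146 and 117 CPM, median 73.7). The part of any of these in the spread of C4b was not tested.

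Since C4a and C4b moved in opposite directions in WSB, the makeup of C4 reads differed between strains. The transcripts compared above are 5371 and 5379 bases long, so that their read counts stand close to a comparison per length. In WSB, C4a took 41.0% to 58.2% of C4a and C4b reads in the CeA, 25.6% to 44.5% in the NAcc and 26.9% to 56.2% in the PrL. In B6 it took 2.37% to 9.17%, 3.01% to 11.3% and 2.92% to 14.0%, respectively. CAST and PWK lay between, with medians of 16.4% to 25.1%. With the counts of both genes added, 5 or 6 of the 7 WSB contrasts were still called in each region and the strain F-test was passed in all 3 (adjusted p of at most 2.22e-06, limma). Read pairs identical in the 2 genes could not be assigned by sequence, and the part of strain variants in the alignment to a single reference was not tested.

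**Figure D2:**
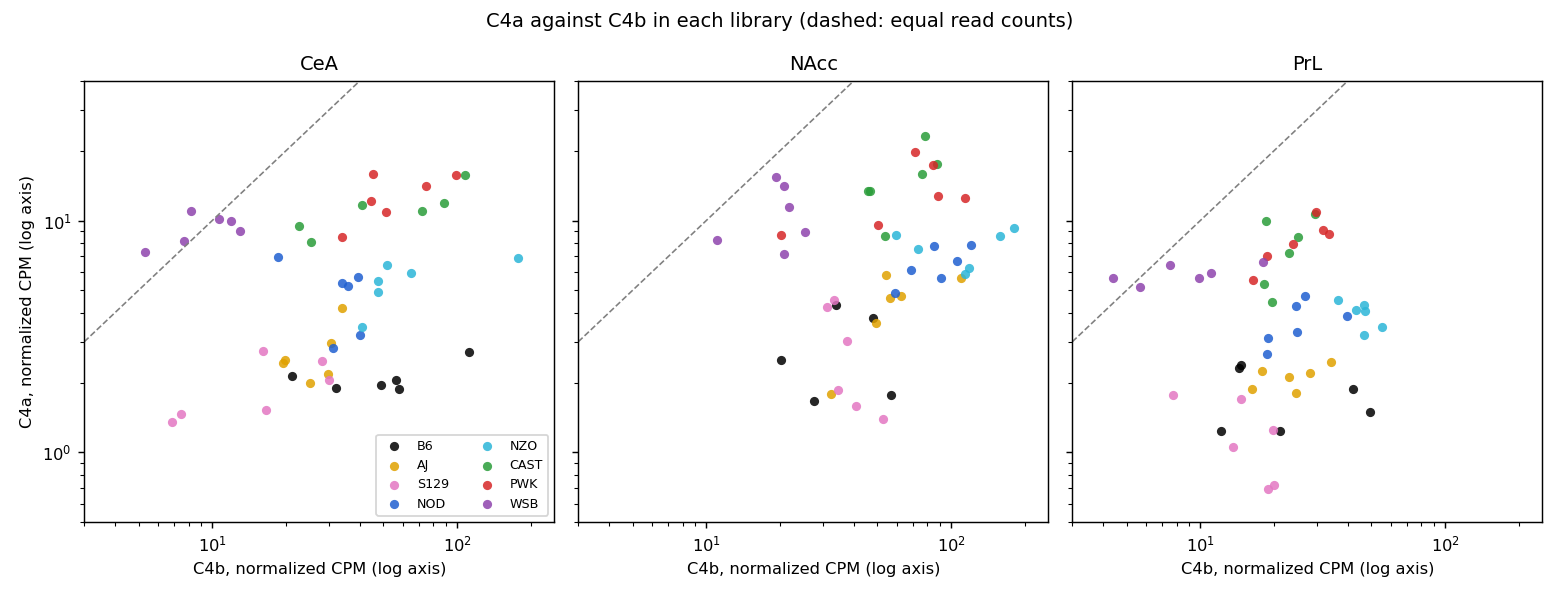
Normalized CPM of C4a (vertical, log axis) against C4b (horizontal, log axis) in each library of the CeA, NAcc and PrL, with points coloured by strain and a dashed line at equal levels. WSB libraries sit nearest the line by their median, with C4a at 7.35 to 11.0 CPM in the CeA beside C4b at 5.29 to 13.0, and in the CeA the B6 libraries sit furthest from it by median (C4a share 3.68%).

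Cfb could not be assessed. The libraries of all 3 regions held 29 reads of it in all, in 24 libraries, with at most 3 in a library, which is the limit that a count of 0 allows (0.0884 to 0.201 CPM by library). WSB gave 10 of these reads and NZO none. In GENCODE M21, 79.5% of the exonic bases of Cfb (2246 of 2825) also belong to Gm20547, a gene on the same strand, which had 0 reads in every library. How reads over both genes were counted is not given in the sources used here, so the low counts do not show a low level of Cfb RNA. In a fit of all 32611 genes with at least 10 reads, Cfb passed no strain F-test (adjusted p = 0.203, 0.241 and 0.952 in the CeA, NAcc and PrL, limma) and no pairwise or Low_Average contrast. The CeA against NAcc contrast was called (adjusted p = 0.0288, limma) from 7 reads in 48 libraries and 16 reads in 47, and no fold is given because every library was at or under the limit.

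Serping1, the C1 inhibitor gene, was highest in the PrL and lowest in PWK. In the PrL, PWK ran from 1.38 to 6.04 CPM (median 2.8) and NZO, the highest strain, from 6.41 to 15.8 (median 8.77). NZO exceeded PWK by 1.71 ± 0.406 on the log2 scale (adjusted p = 0.000857, limma), with no overlap of the groups. PWK was below 5 strains in the NAcc and 5 in the PrL. In the CeA, PWK ran from 0.92 to 4.6 CPM (median 1.29) and B6 from 2.24 to 12.5 (median 4.16), a difference of 1.60 ± 0.382 (adjusted p = 0.00122, limma). No neighbours in the order of strain means differed beyond their spread in any region (smallest adjusted p = 0.103, limma). In B6 PrL, mice 25 and 33 held 17.7 and 14.7 CPM against 3.2 to 6.08 in the other 4. The summed level of 7 leptomeningeal and fibroblast markers ran from 16.9 to 162 CPM in the PrL (median 77.8) against 7.93 to 35.2 in the NAcc and 15.8 to 128 in the CeA. Within the PrL it correlated with Serping1 after strain, sex and tray were removed (r = 0.77, 48 libraries, which share a punch procedure), as did 5 astrocyte markers (r = 0.80). Their part in the regional difference was not tested.

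Cd55, which encodes decay-accelerating factor, had its highest strain mean in PWK in the NAcc and PrL, and in the CeA only with mouse 24 included. In the NAcc, PWK ran from 4.28 to 8.4 CPM (median 6.52) and AJ, the lowest strain, from 1.48 to 2.92 (median 1.82). AJ was lower than PWK by a log2 fold change of -1.73 ± 0.242 in the NAcc (adjusted p = 3.42e-07, limma). WSB and NOD, with NAcc medians of 4.96 and 4.29 CPM, did not differ from PWK beyond their spread. In the PrL, PWK ran from 6.72 to 13.0 CPM (median 12.2) and exceeded 6 strains, with S129, at 4.74 to 6.73 CPM, the lowest (-0.93 ± 0.153, adjusted p = 4.53e-06, limma). In the CeA the highest value, 35.0 CPM, came from PWK mouse 24, whose choroid plexus markers summed to 9330 CPM, and the other 5 PWK libraries ran from 4.68 to 6.3. Without mouse 24 the PWK mean log2 CPM in the CeA was 2.55 in place of 2.98, below B6 (2.78), NOD (2.72) and CAST (2.59). The B6 and NOD means still held choroid plexus libraries. Without all 15 such libraries the highest CeA means were close together, at 2.59 in CAST, 2.57 in NOD and 2.55 in PWK. AJ CeA libraries were closely grouped at 3.36 to 3.7 CPM. Over all strains, the 15 CeA libraries with choroid plexus RNA had a Cd55 median of 6.7 CPM and a highest value of 35.0, against 5.02 and 6.74 in the other 33. Across the 48 CeA libraries the correlation of Cd55 with the choroid plexus markers, after strain, sex and tray were removed, was r = 0.81. The antisense gene Gm16083 shares 2.1% of the exonic bases of Cd55 and had 0 to 58 reads per library.

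Cd59a, the inhibitor of the terminal pore, differed between strains in several steps. NOD was highest in all 3 regions, and S129, CAST and PWK were lowest. In the PrL, NOD ran from 14.7 to 20.9 CPM (median 16.3), WSB from 10.4 to 12.5 (median 11.0) and NZO from 8.64 to 15.5 (median 10.2). AJ ran from 7.65 to 10.6 CPM (median 8.2) and B6 from 3.79 to 7.29 (median 5.73). CAST, S129 and PWK had medians of 3.68, 3.21 and 2.57 CPM, and none of their 18 libraries exceeded 4.53. Going down this order, the steps from NOD to WSB (adjusted p = 0.000205, limma), AJ to B6 (adjusted p = 0.000277) and B6 to CAST (adjusted p = 0.00469) were called, and the other 4 were not. NOD exceeded PWK by 2.69 ± 0.181 in the PrL (adjusted p = 3.09e-16, limma) and by 2.71 ± 0.36 in the CeA (adjusted p = 1.02e-07), and it exceeded CAST by 3.19 ± 0.273 in the NAcc (adjusted p = 1.82e-12). In the NAcc, WSB (14.7 to 31.4 CPM) stood beside NOD (20.9 to 27.6 CPM), and both exceeded the other 6 strains. B6 CeA libraries ran from 6.9 to 30.3 CPM, and the 2 highest, mice 1 and 9 at 30.3 and 19.9, were those with choroid plexus RNA.

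B6 and PWK were then each compared with Low_Average, to ask how each high preference strain differed from the average of the 6 strains of low preference. C4a was lower in B6 and higher in PWK in all 3 regions. In B6 the log2 fold change of C4a was -1.19 ± 0.189 in the CeA (adjusted p = 2.62e-06, limma), -1.33 ± 0.311 in the NAcc (adjusted p = 0.000845) and -0.97 ± 0.188 in the PrL (adjusted p = 4.73e-05). In PWK it was 1.39 ± 0.122 in the CeA (adjusted p = 1.97e-12, limma), 0.97 ± 0.184 in the NAcc (adjusted p = 5.49e-05) and 1.24 ± 0.131 in the PrL (adjusted p = 1.52e-10). PWK and B6 were set against the same 6 strains, so the 2 comparisons share those libraries. In B6 the CeA also had higher C4b (0.87 ± 0.293, adjusted p = 0.0165, limma), Serping1 (0.98 ± 0.255, adjusted p = 0.00217) and Cd59a (0.76 ± 0.222, adjusted p = 0.00566). In the PrL, Cd59a was lower in B6 (-0.52 ± 0.118, adjusted p = 0.00041, limma).

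The CeA calls in B6 rested in part on 1 library. Without B6 mouse 1 the log2 fold change of C4b was 0.6 (adjusted p = 0.121, limma) and that of Cd59a was 0.45 (adjusted p = 0.106). Without the 15 choroid plexus libraries they were 0.64 (adjusted p = 0.16, limma) and 0.28 (adjusted p = 0.181), and Serping1 remained called. B6 CeA libraries also had the highest summed oligodendrocyte markers of the 8 strains by median, at 5770 to 18500 CPM with a median of 8480, against medians of 2020 to 5180 in the others. With astrocyte, oligodendrocyte, leptomeningeal and choroid plexus markers as covariates, the B6 CeA values were -0.18 for C4b (adjusted p = 0.534, limma), 0.22 for Serping1 (adjusted p = 0.475) and 0.16 for Cd59a (adjusted p = 0.506), whereas C4a was still called lower and C3 became so (-1.70, adjusted p = 0.0141).

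In PWK, Cd59a was lower in all 3 regions and Cd55 was higher in all 3. The log2 fold change of Cd59a was -1.36 ± 0.322 in the CeA (adjusted p = 0.000758, limma), -1.42 ± 0.228 in the NAcc (adjusted p = 3.98e-06) and -1.58 ± 0.163 in the PrL (adjusted p = 9.08e-11). That of Cd55 was 0.70 ± 0.242 in the CeA (adjusted p = 0.0192, limma), 1.02 ± 0.156 in the NAcc (adjusted p = 1.62e-06) and 0.58 ± 0.107 in the PrL (adjusted p = 2.42e-05). Without PWK mouse 24 the CeA value of Cd55 was 0.19 (adjusted p = 0.448, limma), and without all 15 choroid plexus libraries it was 0.35 (adjusted p = 0.00435). Serping1 was lower in the NAcc (-0.65 ± 0.188, adjusted p = 0.00676, limma) and the PrL (-1.12 ± 0.353, adjusted p = 0.00911). Its CeA value was also below 0 but not called (-0.63 ± 0.322, adjusted p = 0.119, limma). That value ran from -1.01 to -0.41 over the alternatives, of which 3 of 16 were called. PWK mouse 24 held 4.6 CPM of Serping1 in the CeA, and the other 5 PWK libraries 0.92 to 1.65. C4b was higher in PWK in the CeA (1.05 ± 0.291, adjusted p = 0.0038, limma). With the 4 marker sums as covariates, 3 of the 4 NAcc calls in PWK were lost, those of C4a (0.47, adjusted p = 0.484, limma), Serping1 (-0.82, adjusted p = 0.097) and Cd55 (0.64, adjusted p = 0.0722). C3 was called in neither strain, and its NAcc value in B6 was -2.06 ± 0.859 (adjusted p = 0.0576, limma). The number of B6 NAcc calls moved with single libraries, since 3 members were called without B6 mouse 9, WSB mouse 19 or WSB mouse 35 and 2 without B6 mouse 17, against 1 with all.

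In counts, B6 had 3 of 6 members higher and 1 lower in the CeA, 1 lower in the NAcc and 2 lower in the PrL. Among all genes, 22.3%, 17.3% and 18.2% were higher in B6 in the CeA, NAcc and PrL, and 18.8%, 14.9% and 19.3% were lower. PWK had 3 members higher and 1 lower in the CeA, and 2 higher and 2 lower in each of the NAcc and PrL. Among all genes, 20.1%, 20.0% and 23.9% were higher in PWK and 19.1%, 18.7% and 23.2% were lower. The median log2 fold change of the 6 members was 0.61, -0.45 and -0.06 in B6 and 0.81, -0.05 and -0.08 in PWK (CeA, NAcc and PrL), and that of all genes lay between -0.003 and 0.011.

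**Figure D3:**
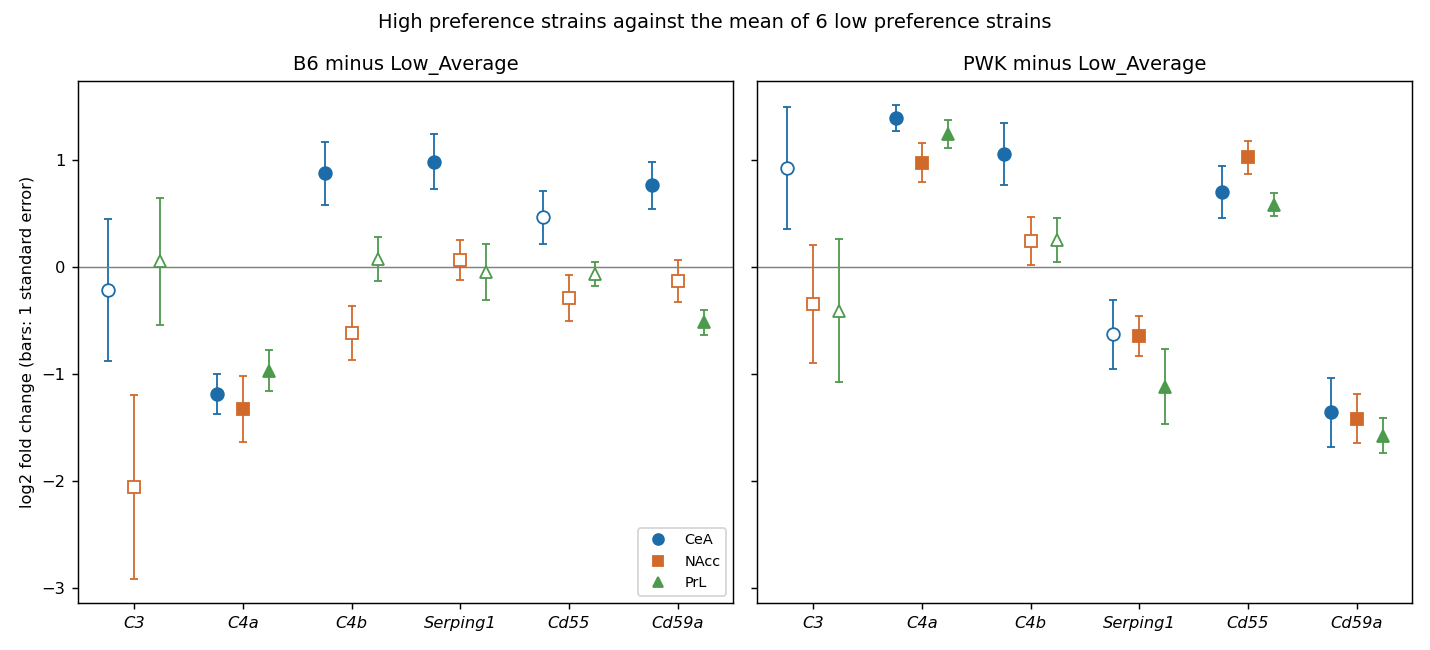
Log2 fold change (vertical axes, bars 1 standard error) of B6 (left) and PWK (right) against Low_Average, for 6 genes and 3 regions. Filled symbols passed an adjusted p of 0.05. C4a was below 0 in B6 and above 0 in PWK in every region, and Cd59a in PWK was below 0 in every region.

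Regions were compared over all strains in 1 fit. C3, C4a and C4b were lowest in the PrL, and Serping1 and Cd55 were highest there. C3 had a median of 0.311 CPM in the PrL, 0.884 in the NAcc and 1.12 in the CeA, and it exceeded the PrL by 2.02 ± 0.326 in the CeA (adjusted p = 1.83e-08, limma) and by 1.59 ± 0.329 in the NAcc (adjusted p = 7.09e-06). The CeA and NAcc did not differ for C3 beyond its spread (0.43 ± 0.315, adjusted p = 0.216, limma). In the 33 CeA libraries without choroid plexus RNA the C3 median was 0.695 CPM, below that of the NAcc. Those 33 held 6 AJ but 3 WSB libraries, whereas the NAcc held 6 of each, so the strain makeup behind these medians differed. Across the alternatives the CeA minus NAcc value of C3 ran from 0.11 to 0.48, and none was called. C4b, with medians of 54.0 CPM in the NAcc, 33.9 in the CeA and 20.6 in the PrL, differed between all 3 regions, as did C4a with medians of 7.2, 5.43 and 3.97 CPM. The log2 difference between the NAcc and PrL was 1.34 ± 0.127 for C4b (adjusted p = 1.89e-18, limma) and 0.87 ± 0.106 for C4a (adjusted p = 6.28e-13).

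Serping1 had a median of 6.39 CPM in the PrL against 2.79 in the NAcc and 2.44 in the CeA. The CeA was lower than the PrL by a log2 difference of -1.24 ± 0.116 (adjusted p = 7.37e-19, limma). In the main fit the CeA and NAcc did not differ beyond their spread (-0.12 ± 0.121, adjusted p = 0.357, limma). Over the alternatives this value ran from -0.29 to -0.08, and 1 of 8 was called (adjusted p = 0.0317, limma). CeA libraries with choroid plexus RNA had a Serping1 median of 2.86 CPM (n = 15), against 2.23 in the other 33. Cd55 had medians of 6.91 CPM in the PrL, 5.47 in the CeA and 3.56 in the NAcc, and all 3 contrasts were called, the largest being NAcc minus PrL at -1.05 ± 0.096 (adjusted p = 1.61e-19, limma). Cd59a was higher in the NAcc than in the CeA (CeA minus NAcc -0.36 ± 0.097, adjusted p = 0.000535, limma) and than in the PrL (0.41 ± 0.097, adjusted p = 8.46e-05), with no call between the CeA and PrL (0.05 ± 0.0971, adjusted p = 0.647). In all, 1 member was higher and 3 lower in the CeA than the NAcc, 3 higher and 2 lower in the CeA than the PrL, and 4 higher and 2 lower in the NAcc than the PrL. The shares of all genes were 32.7% higher and 35.5% lower, 38.9% and 34.6%, and 43.9% and 38.2%, in the same order. Oligodendrocyte markers also differed by region, with summed medians of 6530 CPM in the NAcc, 3080 in the CeA and 1800 in the PrL. They correlated with C4b over the residuals of all libraries (r = 0.62), as did astrocyte markers (r = 0.67). Astrocyte markers had summed medians of 1210 CPM in the NAcc, 1170 in the CeA and 1100 in the PrL. The part of either marker list in the order of C4b was not tested.

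Strain differences depended on region for 3 of 6 members, Cd59a (adjusted p = 0.000206), C4b (adjusted p = 0.039) and Cd55 (adjusted p = 0.044, moderated F-test over the strain by region terms, limma), against 34.2% of all genes. Serping1 (adjusted p = 0.0652), C3 (adjusted p = 0.397) and C4a (adjusted p = 0.992) were not called. For Cd59a, WSB rose from a mean log2 CPM of 3.25 in the CeA and 3.49 in the PrL to 4.42 in the NAcc, whereas the B6 mean, highest in the CeA, was 3.02 in the NAcc and 2.43 in the PrL, and S129 held 1.74 to 1.82 in all regions. For C4b, B6 had a higher mean in the CeA (5.58) than in the NAcc (5.12), and each of the other 7 strains had a higher mean in the NAcc. For Cd55, every strain had its lowest mean in the NAcc, and AJ, the lowest strain in the CeA and NAcc, was above S129 in the PrL. Without the choroid plexus libraries C4b was no longer called (adjusted p = 0.0766, limma), and Cd59a (adjusted p = 0.00435) and Cd55 (adjusted p = 0.00314) were.

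**Figure D4:**
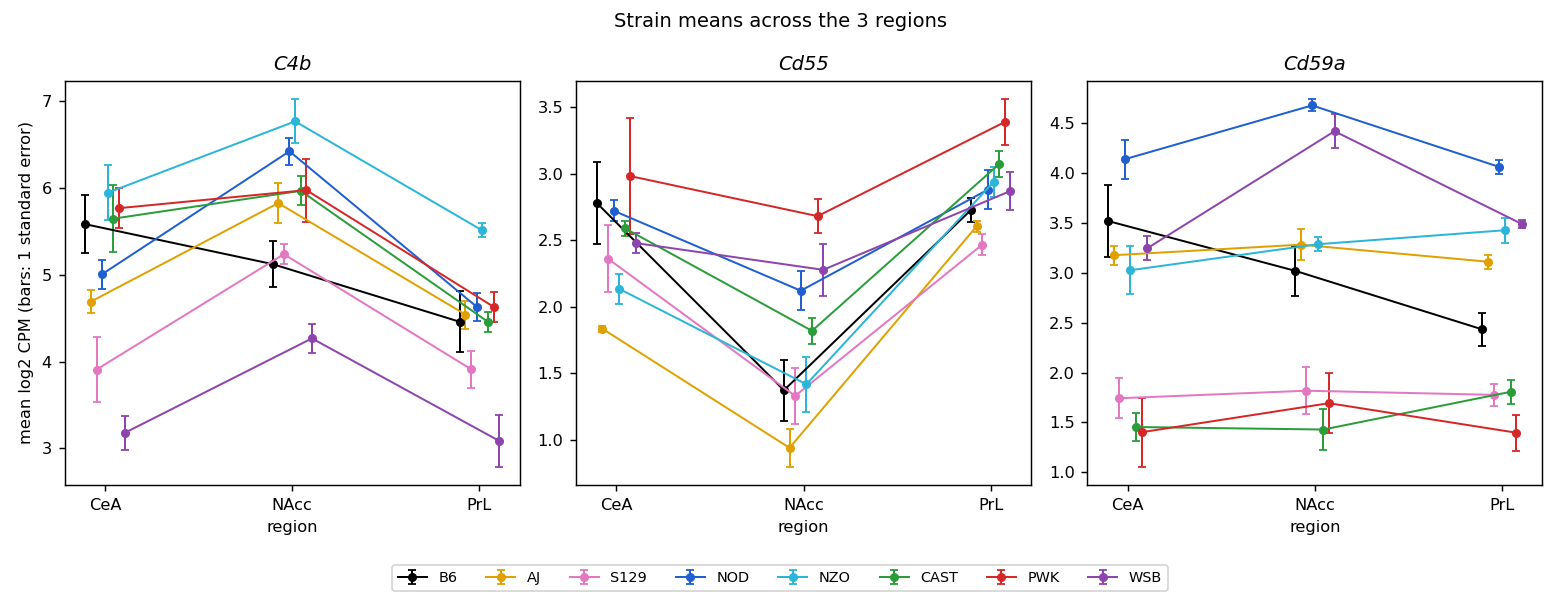
Mean log2 CPM (vertical axes, bars 1 standard error, n = 5 or 6 mice) of C4b, Cd55 and Cd59a in each region (horizontal axes), with 1 line per strain. Lines cross for B6, whose C4b and Cd59a means were highest in the CeA, where 2 of its 6 libraries held choroid plexus RNA. They also cross for WSB, whose Cd59a mean was 4.42 in the NAcc.

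Sex was tested because the C4a product is known for a sex-limited level outside the brain. None of 18 member-by-region tests was called by limma or by edgeR, and 0 of 18 had an unadjusted p below 0.05 with limma (smallest p = 0.127). For C4a the male minus female log2 difference was 0.13 ± 0.135 in the NAcc, 0.02 ± 0.092 in the CeA and -0.03 ± 0.0966 in the PrL. In the NAcc, C4a ran from 1.39 to 17.5 CPM in 23 female libraries (median 6.69) and from 1.58 to 23.2 in 24 male libraries (median 7.79). Of all genes, 0.135%, 0.0812% and 0.0947% were called by sex in the CeA, NAcc and PrL.

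Genes whose levels varied most like each member were ranked by correlation over the residuals of all libraries left after strain by region, sex and tray, a description in which all points share these libraries. C4b varied most like Gfap, the astrocyte filament gene (r = 0.80), Ddr1 (r = 0.76) and Plin3 (r = 0.75). C3 varied most like Odf3b (r = 0.68), Crocc2 (r = 0.63) and Foxj1 (r = 0.61), the last of which encodes a regulator of motile cilia. Serping1 varied most like Aebp1 (r = 0.80), the matrix proteoglycan gene Bgn (r = 0.78) and the laminin gene Lamb2 (r = 0.77). Cd55 followed the leptin receptor gene Lepr (r = 0.74), Col8a1 (r = 0.70) and Ddr2 (r = 0.70), and Cd59a followed Itprid2 (r = 0.76), Cd63 (r = 0.75) and Slc4a2 (r = 0.75). C4a followed Snrnp70 (r = 0.71), Myo9b (r = 0.70) and Pnisr (r = 0.69). Over the 24 strain-by-region means the most like genes were others, among them Tent5a for C3 (r = 0.86), Ccdc190 for C4a (r = 0.86), Bckdha for C4b (r = 0.88), Col1a2 for Serping1 (r = 0.92), Gm9947 for Cd55 (r = 0.91) and Pcnp for Cd59a (r = 0.89). Among the members themselves, the residuals of C4b and Serping1 correlated most (r = 0.65), followed by Cd55 and Cd59a (r = 0.54), and those of C4a and C4b only weakly (r = 0.29).

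**Figure D5:**
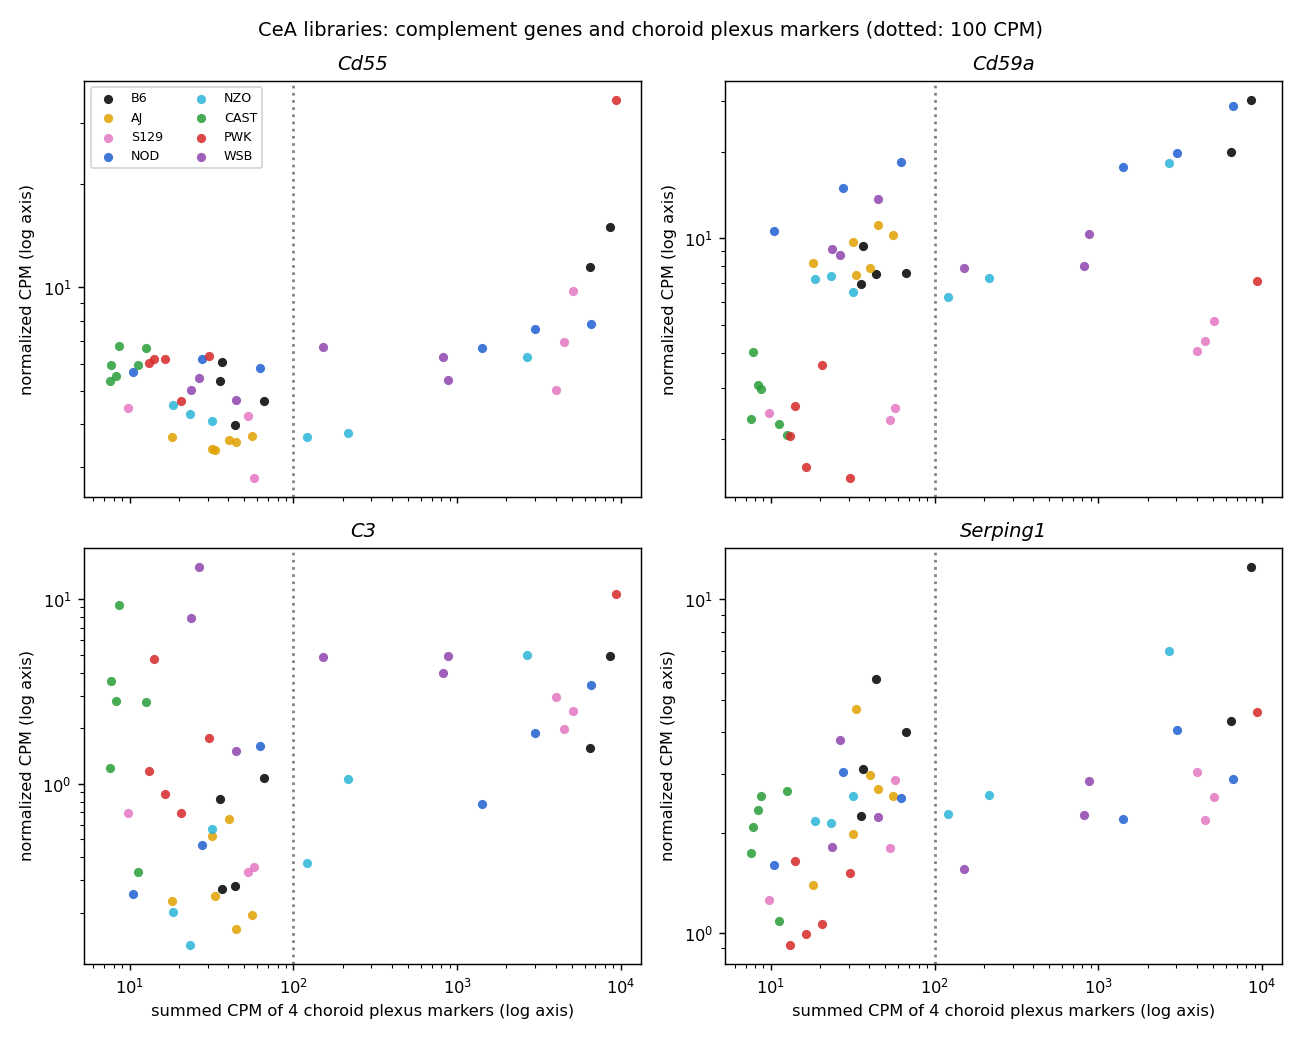
Normalized CPM (vertical, log axes) of Cd55, Cd59a, C3 and Serping1 in the 48 CeA libraries against the summed CPM of 4 choroid plexus markers (horizontal, log axis), coloured by strain, with a dotted line at 100 CPM. The 15 libraries right of the line include the highest Cd55 value (35.0 CPM, PWK mouse 24), the highest Cd59a value (30.3 CPM, B6 mouse 1) and the highest Serping1 value (12.5 CPM, B6 mouse 1), while the highest C3 value (15.0 CPM, WSB) lies left of it.

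The other genes of the pathway were taken from a list of 50, of which 21 had log2 values. The strain F-test was passed by 19 of 21 in the CeA, 18 in the PrL and 16 in the NAcc, close to the 80.8%, 84.1% and 76.0% of all genes, and by 14 in all 3 regions. Of the initiating genes, C1qc, a C1q subunit, was highest in B6 in every region (log2 fold change against Low_Average 1.16, 0.9 and 0.98 in the CeA, NAcc and PrL, with adjusted p of at most 3.12e-09, limma), and C1qb and C1qa were also higher in B6. Masp2, a lectin pathway protease gene, was highest in AJ and lowest in NZO in every region, with a mean range of 5.37 on the log2 scale, and it was lower in B6 and higher in PWK in all 3 regions. In the terminal cascade, C8g was highest in PWK in every region (1.61, 1.45 and 0.87, with adjusted p of at most 0.000111, limma), and C7 was higher in PWK in the CeA (1.73, adjusted p = 3.83e-11) and NAcc (0.83, adjusted p = 0.0286). Of the regulators, Vtn, encoding vitronectin, was higher in B6 in the CeA (0.63) and NAcc (0.43). Of the receptors, C3ar1, encoding the C3a receptor, was higher in B6 (1.56, 1.23 and 0.8) and lower in PWK (-0.71, -1.09 and -0.58), and Itgam, a subunit of complement receptor 3, was higher in B6 (0.69, 0.34 and 0.47), all called by limma. Over the 21 genes, 11 were higher and 6 lower in B6 in the CeA, 8 and 2 in the NAcc and 8 and 3 in the PrL. For PWK these counts were 8 and 1, 6 and 4, and 7 and 3. Over all genes the share higher in B6 was 22.3%, 17.3% and 18.2% and the share lower 18.8%, 14.9% and 19.3%, and for PWK they were 20.1%, 20.0% and 23.9% higher and 19.1%, 18.7% and 23.2% lower. The 21 genes and the members were measured in the same libraries, so the 2 sets are not independent.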

How the data were processed

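RNA-seq data of 48 naive mice were used. Per the labels and the methods of the study, libraries were stranded, poly(A)-selected and paired-end. The authors trimmed reads with Trimmomatic, checked them with FastQC and aligned them with STAR 2.7.3a to GRCm39. The deposited counts are read counts per gene from STAR, without normalization, in 240 columns that include repeat runs. The deposited log2 values are log2 CPM of 143 libraries and 14785 genes, made by the authors with edgeR 3.38.1 and limma 3.52.2 after a filter on a mean of 1 CPM. Recomputing them from the counts with TMM factors and voom gave values within 5e-06. The step that assigned reads to genes where annotations overlap is not given in the sources used here.

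Only the 143 libraries with log2 values were used, 1 per mouse and region. CPM in the text are counts divided by TMM-scaled totals. Following the study, limma-voom was fitted within each region on strain, sex and sequencing tray over all 14785 genes. The 28 pairwise contrasts were adjusted together, the 2 Low_Average contrasts together within a region, and F-tests over genes, all by Benjamini-Hochberg at 0.05. Regions and the strain by region interaction were fitted over all 143 libraries. Results were recomputed with other filters (total counts of at least 10, mean CPM of at least 5), DESeq2 size factors, no tray term, an extra library, summed runs and quality weights. C3 and Serping1 did not pass the filter on a mean CPM of at least 5. Strain and Low_Average tests within regions were also recomputed with edgeR and DESeq2, and sex tests with edgeR. Region contrasts and the interaction were not recomputed with these 2 tools. Code was tested on simulated data. Tools were R 4.3.3, limma 3.58.1, edgeR 4.0.16, DESeq2 1.42.0, data.table version 1.17.8, Python 3.11.15, matplotlib 3.10.9 and Biopython 1.88.

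The members, gene lists and tests were chosen with earlier results of these data known. All 7 members are named. Other pathway genes are the 10 with the largest range of strain means among those that passed the F-test in all 3 regions, of which 1 is not reported here, and like genes are the 3 with the highest r. Libraries of a mouse are paired across regions through its animal number in the labels. After strain, sex and tray were removed, gene profiles of the same mouse correlated with a median r of 0.0557 (CeA and NAcc, 47 mice), 0.0301 (CeA and PrL, 48 mice) and -0.00155 (NAcc and PrL, 47 mice). Replicates are separate mice. Depth limits C3 and Cfb. Counting limits cover counting error only.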

Additional observations from a re-analysis of the deposited data

Results flagged for a closer look

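A single mouse stood apart from the other mice of its strain and region in 14 of 144 groups (9.72%), by Dixon's gap ratio on log2 CPM. Chance marks about 1 in 20 groups. Several of these were CeA libraries with choroid plexus RNA. NZO mouse 26 was high there for C4b (log2 CPM 7.48, nearest 6.02), Serping1 (2.81, nearest 1.38) and Cd59a (4.20, nearest 2.88), and its choroid plexus markers summed to 2690 CPM. PWK mouse 24 was high for Cd55 (5.13, nearest 2.66) and Serping1 (2.21, nearest 0.74), with marker sums of 9330 CPM. B6 mouse 1 was high for C4a (1.45, nearest 1.11), with marker sums of 8570 CPM. NOD mouse 7 was low for C4b in the CeA (4.22, nearest 4.96).

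In the NAcc, PWK mouse 48 was low for C3 (-2.30, nearest -0.24), WSB mouse 35 was low for C4b (3.47, nearest 4.27) while it held the highest C3 level of the series (21.0 CPM), and NOD mouse 23 was low for Cd59a (4.39, nearest 4.67). In the PrL, NOD mouse 47 was high for Serping1 (3.21, nearest 2.68), WSB mouse 35 was low for Serping1 (1.30, nearest 2.75), NZO mouse 18 was high for Cd55 (3.46, nearest 2.92) and CAST mouse 4 was low for Cd59a (1.23, nearest 1.78).

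Strain effects differed between regions by the interaction F-test for C4b (adjusted p = 0.039, limma), Cd55 (adjusted p = 0.044) and Cd59a (adjusted p = 0.000206).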

How the results depend on the processing

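Alternatives other than leaving out 1 mouse included the fit without the 15 choroid plexus libraries. Across them, 478 log2 differences kept direction and call, 8 lost the call, 13 gained it and 17 turned direction. Leaving out 1 mouse gave 260, 3, 9 and 10. All that turned were uncalled with all libraries except C4b in B6 in the CeA. Where no cause is given, the cause was not tested. Depth limits C3, and Cfb could not be assessed.

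Counts of members called moved as follows. The interaction fell from 3 to 1 among genes with at least 10 counts. It was 2 without the tray term, with 144 libraries or without the choroid plexus libraries, and 4 with quality weights or runs summed, where Serping1 passed (adjusted p = 0.0297 and 0.0351, limma). CeA against PrL fell from 5 to 3 with a mean CPM of at least 5, which tests fewer members. B6 against Low_Average in the NAcc went from 1 to 3 with quality weights and to 2 with runs summed, DESeq2 or marker covariates, and ran from 1 to 3 when 1 mouse was left out. In the CeA it went from 4 to 2 without the choroid plexus libraries or with marker covariates, and ran from 2 to 5 when 1 mouse was left out. PWK in the NAcc went from 4 to 1 with marker covariates. The choroid plexus, marker covariate, summed C4, WSB and strain order alternatives were chosen after seeing the data.

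Directions turned as follows, on the log2 scale. With quality weights, B6 in the NAcc was -0.05 for Serping1 and 0.02 for Cd59a, C4b in B6 in the PrL was -0.21 and Cd59a in CeA minus PrL was -0.10, as it also was (-0.10) without the choroid plexus libraries. With an extra library, Cd59a in B6 in the NAcc was 0.12. For B6 in the PrL, C3 and Serping1 were -0.11 and 0.07 with runs summed, -0.41 and 0.23 with edgeR, and -0.45 and 0.23 with DESeq2. With marker covariates, C4b in B6 was -0.18 in the CeA and -0.29 in the PrL, C3 was -0.16 in PWK in the CeA and -0.59 in B6 in the PrL, and Cd55 in B6 in the NAcc was 0.02. When 1 mouse was left out, B6 ranged from -0.89 to 0.08 for C3 in the CeA, from -0.06 to 0.25 for Serping1 and -0.27 to 0.09 for Cd59a in the NAcc, and from -0.13 to 0.14 for C3, -0.36 to 0.15 for Serping1 and -0.13 to 0.30 for C4b in the PrL.

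With the mouse as a replicate block, region contrasts called 4, 5 and 6 members, as without it. The interaction called 4, since Serping1 passed (adjusted p = 0.0491, limma), and the block changed no other call. The interaction of C4b was not called with 144 libraries (adjusted p = 0.0782) and that of Cd55 without the tray term (adjusted p = 0.0653).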
